A study of Mus musculus with 2 samples.

Results

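A small group of cells defined by Krt79, Cst6 and 6 other genes was found in the wild-type mammary library and not in the library from Gpm6a-deleted mice. Krt79 was detected in all of them and Cst6 in 30.4%. Krt79 is a keratin of the skin's hair canal and sebaceous duct, and Cst6 encodes cystatin M/E, a secreted inhibitor of cysteine proteases in skin. The cells were chosen by their own counts of unique molecular identifiers (UMIs, 1 per captured transcript) for 8 marker genes: a cell was a member when at least 4 of the genes Cst6, Krt79, Olah, Fa2h, Calml3, Dsc3, Acot5 and Adtrp had a UMI and Cst6 and Krt79 together had at least 2. Of 10984 barcodes kept from the wild-type (WT) library, 148 met this rule, a share of 1.35% (95% exact Clopper-Pearson interval 1.14 to 1.58). Of 10907 kept from the knockout (KO) library, 0 did, which allows a share of up to 0.0275% (3 counts of the total) or, by the exact interval, 0.0338%. Both intervals and limits cover counting error only.

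The study profiled total primary cells of the 4th mammary gland of virgin C57BL/6 female mice aged 6 to 8 weeks. One group was WT and the other carried a Gpm6a deletion; Gpm6a encodes a membrane glycoprotein best known from neurons. Live cells, sorted only as DAPI-negative, came from 3 WT and 3 Gpm6aKO littermates, and each genotype gave 1 droplet library made with a 10x Genomics 3′ kit. The labels do not say whether the animals were pooled, which promoter or allele produced the deletion, or which cells it reached. With 1 library for each genotype, genotype and library cannot be told apart, and every comparison that follows describes these libraries with no test between conditions.

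Sebaceous glands and the upper hair follicle are skin appendages, lined by stratified keratinocytes that express Krt5, Krt14 and Trp63 at their base. Sebocytes mature by filling with triglyceride, wax esters and sterols and then burst to release sebum, and they are known for high fatty acid and cholesterol synthesis. Interfollicular keratinocytes instead switch to Krt1 and Krt10 as they move outwards and end by making loricrin and filaggrin. The mammary epithelium has other layers: contractile basal cells, and luminal cells divided into progenitors and hormone-sensing cells.

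The 2 libraries held 11442 (KO) and 12291 (WT) barcodes with median depths of 9396 and 10168 UMIs. They shared 33 barcode sequences, and 1 member had a barcode sequence that was also present in the KO library. In the deletion check, Gpm6a had 0 UMIs in the 148 members and 0 in the KO epithelial cells, against 19 UMIs in 3105 other WT epithelial cells, so it was near the detection limit in all 3. Elsewhere it was not at 0 in the KO library: in the clusters of no named class it had 24 UMIs in 14 KO cells and 240 UMIs in 36 WT cells. A doublet caller marked 435 KO and 461 WT barcodes, of which 1 was a member.

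The members sat mostly in a cluster of their own. Over both libraries, clustering gave 30 clusters, and 128 of the 148 members fell in a cluster of 273 WT and 0 KO cells. Some other clusters were uneven between the libraries too, such as those of 535 WT and 10 KO cells and of 358 and 22. Others leaned towards KO, such as that of 137 WT and 406 KO cells. The other 20 members were spread over 8 other clusters and the doublet calls. The remaining 145 cells of the members' cluster were shallow, with a median of 4240 UMIs, against 35484 in the members (range 2331 to 101203). Of the 8 rule genes 7 were lower in them than in the members, among them Krt79 at 72.0 CPM (counts per 1000000 UMIs) and Olah at 31.8, and Idi1, of sterol synthesis, was at 993. Dsc3 was not lower, at 213 against 186 CPM. These 145 cells are those that failed the rule, so lower rule genes in them follow largely from the choice. The sebocyte genes summed to 4681 CPM in them against 16754 in the members, whereas spinous keratinocyte genes summed to 5376 against 4677 and epidermal basal genes to 5878 against 3820.5.

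Cells lay on both sides of the rule's edge. In the WT library 30 cells had 4 of the 8 genes and at least 2 UMIs of Cst6 and Krt79, and 24 of them were in the members' cluster. Just outside were 19 cells with 3 of the 8 genes, 14 of them in that cluster, and 26 cells with 4 or more of the genes but fewer than 2 UMIs of Cst6 and Krt79, 20 of them in it. In the KO library 1 cell reached 3 genes and 37 reached 2. When each cell was thinned to 2000 UMIs before the rule was applied, 13 WT and 0 KO cells met it. Thinning only removes UMIs, so the KO count could not rise.

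**Figure D1:**
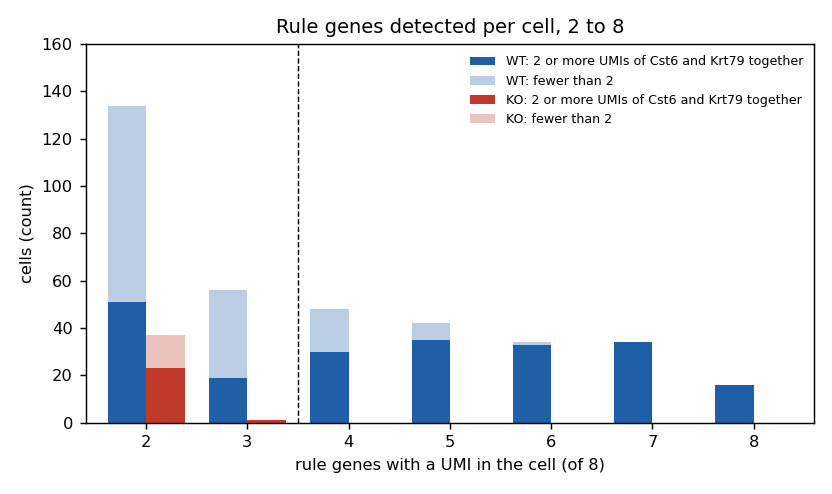
Number of the 8 rule genes with a UMI in a cell (horizontal axis) against the count of kept cells (vertical axis), for cells with 2 to 8 of them. Dark bars are cells with at least 2 UMIs of Cst6 and Krt79 together, pale bars those with fewer, blue WT and red KO, and the dashed line marks the rule's minimum of 4. All cells to the right of the line are WT, and the KO bars end at 1 cell with 3 genes.

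The genes of the rule chose the cells, so their levels are given as a description. Krt79 had a UMI in all 148 members, with 559 CPM, against 7.27 CPM in the other WT epithelial cells. Those 3105 cells were taken from the 6 other clusters that carried epithelial markers. Krt79 also had signal outside the members' cluster: it stood at 13.6 CPM, with a UMI in 18.8% of cells, in the WT hormone-sensing luminal-like cells and at 20.04 CPM, in 20.6% of cells, in the KO ones. In WT basal-like cells it was at 0.87 CPM. Signal in those luminal cells was thus present in both libraries, whereas the combination of rule genes was seen only in WT cells.

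Olah, the thioesterase that releases medium-chain fatty acids from fatty acid synthase, stood at 211 CPM in the members and 0.337 in the other epithelial cells. Fa2h, which hydroxylates fatty acids for ceramides, stood at 108 and 0.107 CPM. Acot5, a peroxisomal acyl-CoA thioesterase, stood at 302 and 0.659 CPM, although Acot genes are near-identical neighbours between which reads can be split. Adtrp, a hydrolase of fatty acid esters of hydroxy fatty acids, stood at 116 and 0.23 CPM. So 4 of the 8 rule genes act on fatty acids. Of the keratinocyte genes, Calml3, a calmodulin-like protein of stratified epithelium, stood at 235 CPM against 1.29, and Dsc3, a desmosomal cadherin of basal layers, at 186 against 2.86.

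Cst6 differed from the other rule genes in how it was spread over cells. Its pooled level was 2909 CPM in the members against 3.12 in the other epithelial cells, but 103 of the 148 members had no Cst6 UMI and 22 had only 1. The 5 highest cells held 90.2% of its 16274 UMIs, and a single cell with 4470 held 27.5%. Krt79 was far more even, with a median of 10 UMIs and a maximum of 402 in a cell. The pooled Cst6 level is therefore a property of a few cells. A UMI of Cst6 appeared in 30.4% of members, against 4.23% of WT immune cells and 2.97% of WT fibroblasts, cell types that should lack it, at median depths of 35484, 8853 and 10474 UMIs.

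In GENCODE M21 coordinates (GRCm38), Cst6 lies on the minus strand of chromosome 19 (5344705 to 5349574) and Krt79 on the minus strand of chromosome 15 (101929332 to 101940324). Olah lies on chromosome 2 (3341982 to 3397210) and Fa2h on chromosome 8 (111345135 to 111393824), both on the minus strand. All are protein-coding genes on separate chromosomes.

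Across the 15391 genes with at least 20 UMIs over the members and the other WT epithelial cells, 387 (2.51%) were at least 4-fold higher in the members and 317 (2.06%) at least 4-fold lower. Ratios were taken on CPM with 1 CPM added. A gene with few UMIs in the other epithelial cells passed the minimum only through the members and could only come out higher. At a 2-fold limit, 1066 genes (6.93%) were higher and 2196 (14.3%) lower, and the median gene had a log2 ratio of −0.25. The members' median of 35484 UMIs compares with 17624 in the other epithelial cells, and their mitochondrial share with a median of 5.39% against 3.83%. With every cell thinned to 2000 UMIs, 259 genes were at least 4-fold higher and 1569 lower, and among cells with at most 5% mitochondrial UMIs, which left 59 members, 337 were higher and 141 lower.

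Genes of lipid and sterol metabolism led the higher side. Among the 25 genes with the highest ratios, rule genes left aside, the log2 ratio ran from 4.80 to 8.41. For all 25 the lower 95% Poisson bound in the members lay above the level in mammary basal-like, luminal progenitor-like and hormone-sensing luminal-like cells. The genes were picked for their ratios over a pool that holds these classes, so this was largely set by the choice. The bound covers counting error only, not the spread between cells. The first was Idi1, isopentenyl-diphosphate isomerase of the cholesterol pathway, at 8192 CPM (95% Poisson interval 8117 to 8267) and with a UMI in 89.2% of members. In the other epithelial cells it was at 23.1 CPM (interval 21.9 to 24.3), and in KO epithelial cells at 19.4. Idi1 reads can be shared with its paralog Idi2.

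Sterol genes among the 25 included Mvk, mevalonate kinase, at 354 against 5.44 CPM, and Hmgcs1, the cytosolic HMG-CoA synthase, at 1290.5 against 38.2. Pdss1, which makes the isoprenoid tail of coenzyme Q from the same precursors, stood at 313 against 4.30 CPM. All 3 draw on or belong to the mevalonate route. The fat-storage genes were Plin2, a lipid droplet coat protein, at 2057 against 39.3 CPM, and Cidea, which makes droplets fuse, at 229 against 4.06. Mgll, which cleaves monoglycerides, stood at 809 against 17.3 CPM, and Lpl, the lipase that takes fatty acids from lipoproteins, at 237 against 7.26.

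Scd1, the desaturase that makes oleate and is needed for normal sebaceous glands, stood at 3698 CPM in the members. Luminal progenitor-like cells came nearest with 318 CPM, followed by hormone-sensing cells with 37.8 and basal-like cells with 23.4. Scd1 is 1 of 4 similar genes, and Scd2 did not share its pattern (37.7 against 40.3 CPM).

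Another set among the 25 acts on alcohols, aldehydes, epoxides and acyl-CoAs. Adh1, an alcohol dehydrogenase that also acts on retinol, stood at 256 CPM against 2.10, and Ephx2, soluble epoxide hydrolase, at 206 against 1.68. The retinol dehydrogenase relatives Sdr16c5 and Sdr16c6 stood at 64.0 and 61.7 CPM, against 0.199 and 0.0153; they are adjacent paralogs between which reads can be split. Pecr, a peroxisomal enoyl-CoA reductase, stood at 400.0 against 11.9 CPM, Aldh3a1 at 54.9 against 1.01 and Echdc1, which clears ethylmalonyl-CoA, at 349 against 7.38.

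Others of the 25 had mixed roles. Psph, the last enzyme of serine synthesis, was present in 98.6% of members at 1212 CPM against 22.9. Anxa8, an annexin of stratified epithelium, stood at 216 against 3.60 CPM. They also included Lhpp (171 against 1.72 CPM), Psapl1 (91.3 against 0.475), Acbd7 (91.7 against 0.873), Plbd1 (64.9 against 0.705) and the interferon-inducible Ifi202b (231 against 4.17).

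The lower side was led by hormone-sensing luminal genes. The 15 genes with the lowest ratios ran from −3.64 to −2.87 on the log2 scale, and 13 of them were highest in hormone-sensing luminal-like cells. The reference weights each class by its UMIs, 21639658 of 65292876 from hormone-sensing cells and 3907689 from progenitor-like cells. Progenitor genes therefore weighed less in this ranking. Areg, the EGF-family ligand released by hormone-sensing cells, stood at 199 CPM in the members, 2956 in hormone-sensing cells and 41.8 in basal-like cells. Wfdc2, a secreted protease inhibitor-like protein, stood at 83.5 CPM against 1669 in hormone-sensing cells, and the simple-epithelial keratin Krt19 at 291 against 4005. The 2 exceptions were highest in luminal progenitor-like cells: the milk protein gene Csn3 (48.3 CPM in members, 2631 in progenitors) and the tight junction gene Cldn3 (56.3 and 1149).

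The others of the 15 were Krt4, Nrxn3, Prss22, Cxcl15, Tmem86a, Pfkfb3, AW112010, Vill, Morrbid and Tspan1, with 5.72 (Nrxn3) to 81.1 CPM (AW112010) in the members. Krt4, a keratin of lining epithelia, stood at 7.86 CPM in them, 1.28 in basal-like cells and 230.2 in hormone-sensing cells. Signal of this kind was uneven over the members, since 5 cells held 77.3% of Krt4 UMIs and 60.7% of Cxcl15 UMIs.

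**Figure D2:**
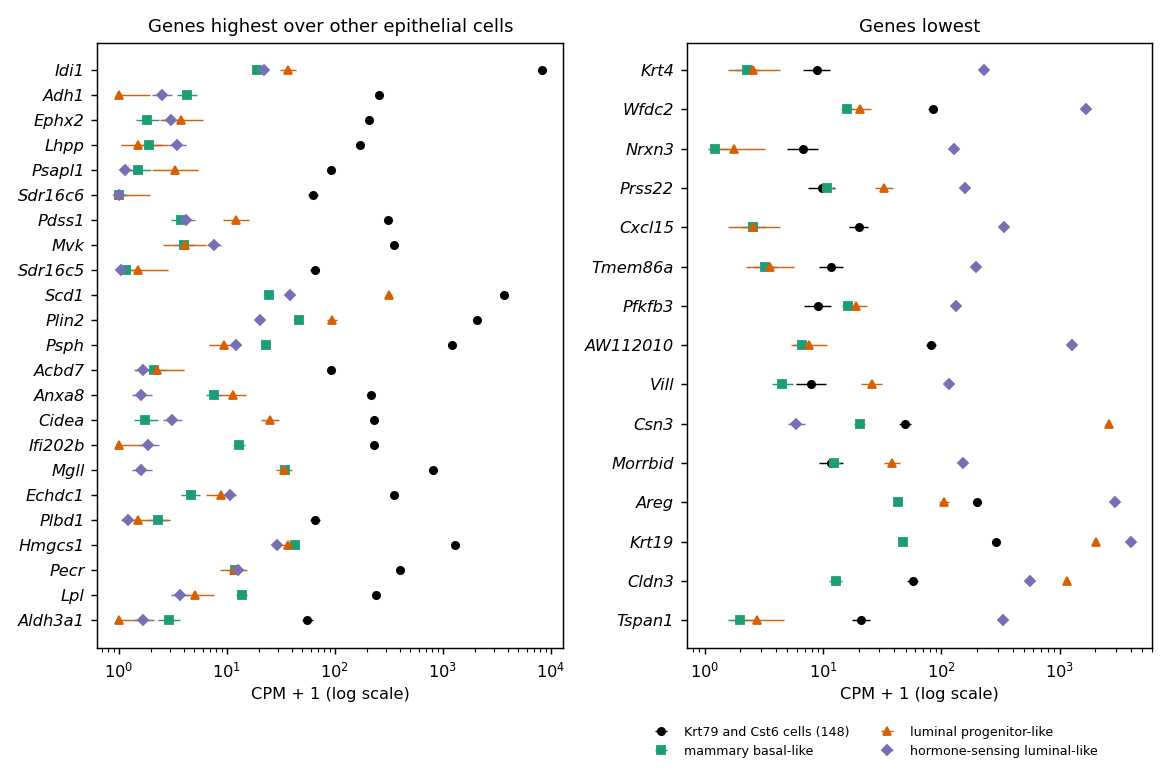
CPM + 1 on a log axis for 23 of the 25 genes with the highest (left) and the 15 with the lowest (right) ratios of members to other WT epithelial cells, with 95% Poisson bars that cover counting error only. Black circles are the 148 members, green squares basal-like, orange triangles luminal progenitor-like and purple diamonds hormone-sensing luminal-like WT cells. On the left every black circle lies to the right of the other symbols, from Aldh3a1 at 54.9 CPM to Idi1 at 8192; on the right the purple diamonds lead for 13 of 15 genes.

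The label of these cells as keratinocyte-like was set against the genes that define keratinocyte layers, and the data bear it only in part. Basal keratins were present: Krt14 had a UMI in 99.3% of members at 2042 CPM, between hormone-sensing cells (7.67) and mammary basal-like cells (3366). Trp63, the transcription factor of stratified and basal epithelium, stood at 231 CPM, with 82.9 in basal-like cells. Krt5, the usual partner of Krt14, stood at 338 CPM with a UMI in 44.6% of members, against 709 in basal-like cells. Of the 12 epidermal basal genes, 2 were at least 2-fold higher than in the other epithelial cells (Krt14 and Trp63) and 3 lower (Lamb3 and Itga3 among them), with a median log2 ratio of −0.28, close to the −0.25 of all genes.

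The outer-layer genes were mostly near 0. Krt1, the spinous-layer keratin, stood at 1.61 CPM in the members and 2.27 in the other epithelial cells, and its partner Krt10 at 24.0 and 20.9. Lor, loricrin, had 5 UMIs in all members and Ivl, involucrin, had 10. Flg, Flg2, Sprr2d, Lce1a1 and Nccrp1 had none, so each was below 0.536 CPM, the level that 0 UMIs allow. Only 7 of the 19 granular and cornified genes had the 20 UMIs needed for a ratio; of these 4 were at least 2-fold higher and 0 lower. The 4 were Sprr1a, an envelope precursor also made under stress (582 against 39.1 CPM), the protease Klk7 (23.8 against 0.444), its inhibitor Spink5 (21.4 against 1.15) and Cnfn (2.68 against 0.444). A gene entered when the 2 groups together reached the count, so these 7 do not stand for all 19.

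Of 14 spinous genes, 11 could be compared; 6 were at least 2-fold higher and 1 lower (Ptgs1), with a median log2 ratio of 1.11, or 0.23 among members with at least 5 of the 8 rule genes. Without the rule gene Calml3 it was 5 of 10 with a median of 0.69. Lgals7, galectin-7 of stratified epithelium, was the broadest of them, with a UMI in all 148 members at 3763 against 666 CPM. Krtdap, a secreted keratinocyte differentiation protein, stood at 288 against 0.352 CPM, but had a UMI in only 17 members. Dmkn, dermokine, stood at 291 against 28.2 CPM, and luminal progenitor-like cells also carried it, at 189.6 CPM.

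Upper hair follicle and sebaceous duct genes were divided. Of 14, 7 were at least 2-fold higher and 1 lower, with a median of 1.29, and without the rule genes Krt79 and Cst6 it was 5 higher and 1 lower of 12, with a median of 0.38. Defb6, a beta-defensin, stood at 141 against 0.0613 CPM, in 10.8% of members; with 4 UMIs in the other epithelial cells it passed the minimum only through the members. Gata6, a transcription factor of the sebaceous duct, stood at 8.76 against 0.628 CPM. Lrig1 and Plet1, stem cell genes of the upper follicle, were not higher, with log2 ratios of −0.76 and −0.48, and Sox9 was level at 877 against 995 CPM.

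The sebocyte list had the largest median of the cell type lists apart from the rule genes themselves. Of its 23 genes 19 could be compared, and 16 were at least 2-fold higher and 2 lower, with a median log2 ratio of 2.96. Among members with at most 5% mitochondrial UMIs it was 1.94, but that limit also changed the mix of members, as described under the processing. Beside Scd1, Plin2, Cidea and Sdr16c5 given above, Fabp5, a fatty acid carrier, stood at 4810.0 against 280.2 CPM, Mgst1, a glutathione transferase, at 3211 against 185 and Apoc1, an apolipoprotein, at 1608 against 303. Soat1, which esterifies cholesterol, stood at 431 against 24.7 CPM. Awat2, a wax ester synthase, stood at 45.6 against 0.383 CPM with a UMI in 33.1% of members.

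Receptors and regulators of sebocytes were part of the same list. Pparg, the nuclear receptor that drives lipid storage, stood at 15.7 against 5.76 CPM and Mc5r, the melanocortin receptor of sebaceous glands, at 13.0 against 0.628. The sebocyte picture was not complete. Awat1 had no UMI, and Elovl3, Dgat2l6 and Far2 had 7, 2 and 3 UMIs over all 148 members; Dgat2, the triglyceride synthase, was lower in them (26.1 against 53.8 CPM), as was Acsbg1 (9.65 against 36.0). Since the data go partly against the given name, the cells are called Krt79 and Cst6 cells here, after their rule.

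Cholesterol synthesis was the pathway with the largest median. Of 23 genes 22 could be compared. Of these 16 were at least 2-fold higher and 1 lower, with a median log2 ratio of 2.39. It was 0.88 among the 59 members with at most 5% mitochondrial UMIs, a limit that also changed the mix of members. The next steps after Mvk were also higher: Pmvk at 108 against 24.5, Mvd at 102 against 6.34 and Fdps, which makes farnesyl diphosphate, at 273 against 32.7. Fdft1, which commits farnesyl diphosphate to sterols, was not higher (17.2 against 23.9 CPM), and Sqle, the epoxidase after it, stood at 62.7 against 33.8. Dhcr7, the last reductase, was the 1 lower gene (2.32 against 6.66 CPM). Srebf2, the transcription factor of the pathway, stood at 142 against 65.9 CPM.

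Because these genes were high together, the 250 bases before the RefSeq transcript starts (GRCm38.p6) are shown for 3 of the highest of them, each on its sense strand. Capitals mark matches, on either strand, to CCAAT or its reverse complement ATTGG, the letters bound by the factor NF-Y, and to TCACCCCAC, a sterol regulatory element (SRE) bound by SREBP factors. The windows are chr13:8885356-8885605 for Idi1, chr5:114444019-114444268 for Mvk and chr13:119690101-119690350 for Hmgcs1, all on the plus strand.
Idi1: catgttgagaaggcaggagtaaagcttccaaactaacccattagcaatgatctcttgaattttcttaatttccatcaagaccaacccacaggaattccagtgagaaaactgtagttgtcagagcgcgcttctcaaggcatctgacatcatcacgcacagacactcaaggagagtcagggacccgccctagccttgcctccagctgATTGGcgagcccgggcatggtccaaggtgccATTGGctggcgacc
Mvk: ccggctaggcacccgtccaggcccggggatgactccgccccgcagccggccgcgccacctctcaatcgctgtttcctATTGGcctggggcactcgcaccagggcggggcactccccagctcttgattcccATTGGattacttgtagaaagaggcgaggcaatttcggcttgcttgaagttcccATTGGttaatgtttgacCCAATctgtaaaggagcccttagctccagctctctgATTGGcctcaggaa
Hmgcs1: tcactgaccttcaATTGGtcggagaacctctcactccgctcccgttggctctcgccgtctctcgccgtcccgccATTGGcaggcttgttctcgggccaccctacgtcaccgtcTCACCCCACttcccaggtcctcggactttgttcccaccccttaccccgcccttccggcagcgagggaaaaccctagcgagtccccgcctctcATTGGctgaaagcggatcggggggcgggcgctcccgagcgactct
Idi1 holds 2 CCAAT matches, Mvk 5 and Hmgcs1 3, and Hmgcs1 alone of the 3 holds the SRE letters. Of the 23 cholesterol genes, 16 had a promoter entry; Fdps, Fdft1 and Sqle were among those without. All 16 held CCAAT in a window, against 37.5% of 27025 genes and 33.8% of 32851 windows of the same length, and Hmgcs1 alone held TCACCCCAC, against 0.496% of windows. Genes of the list that were not higher in the members, such as Ebp and Sc5d, held CCAAT as well. A match describes the letters and is neither a shown site nor a cause.

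Fatty acid synthesis had a similar extent. Of 17 genes compared, 13 were at least 2-fold higher and 1 lower, with a median of 2.15; without the rule gene Olah it was 12 of 16 and 1.89. Among members with at most 5% mitochondrial UMIs the median of the 17 was 0.76. Fasn, fatty acid synthase, stood at 236 against 36.1 CPM, Me1, which supplies NADPH, at 332 against 38.1 and Fads2, the delta-6 desaturase used by sebaceous glands, at 203 against 20.5. The carboxylase Acaca, which supplies malonyl-CoA, was closer, at 39.9 against 18.1 CPM. Thrsp, a lipogenic gene of liver, fat and lactating gland, had no UMI.

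Other lipid lists were higher over fewer of their genes. Several lipid lists share genes with the sebocyte list, such as Fasn, Elovl3, Far2 and Plin5, so they are not separate results. In elongation, 4 of 10 were at least 2-fold higher and 1 lower, with a median of 0.68; the 4 included Hsd17b12 (581 against 43.1 CPM) and Hacd2 (397 against 25.4), enzymes of the elongation cycle. Peroxisomal and ether lipid genes were higher for 10 of 17 and lower for 2, with a median of 1.19, among them catalase, Cat (250.1 against 22.4 CPM), and Agps, which makes the ether bond (763 against 202). Acaa1b, a peroxisomal thiolase, stood at 40.0 against 0.168 CPM. Lipid droplet and triglyceride genes were higher for 9 of 17 and lower for 3, with a median of 1.19; Plin1, the fat-cell droplet protein, had no UMI. Acyl-CoA thioesterases and synthetases were higher for 7 of 18 and lower for 1, with a median of 0.54, led after Acot5 by Acsl1 (181 against 9.96 CPM). Without the rule gene Acot5 it was 6 higher and 1 lower of 17, with a median of 0.51.

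Ceramide and sphingolipid genes, which build the skin barrier, did not share this. Of 23 compared, 5 were higher and 5 lower, with a median of −0.03. Without the rule gene Fa2h it was 4 higher and 5 lower of 22, with a median of −0.04. Fa2h itself stood apart, while the epidermal barrier genes Cers3, Abca12 and Alox12b had 2, 14 and 0 UMIs in the members.

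**Figure D3:**
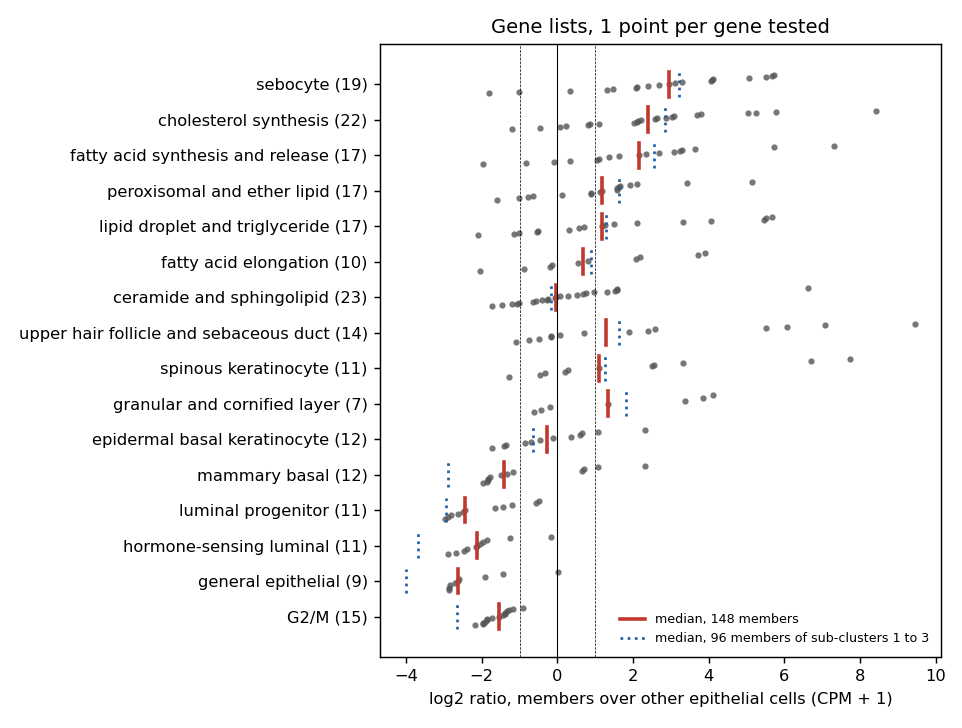
log2 ratio of CPM + 1, members over other WT epithelial cells (horizontal axis), for every gene compared in 16 lists (vertical axis, number of genes in brackets); dashed lines mark 2-fold. Red bars are list medians over all 148 members and blue dotted bars those over the 96 members of sub-clusters 1 to 3. The sebocyte, cholesterol and fatty acid synthesis medians lie at 2.96, 2.39 and 2.15, and the general epithelial median at −2.62.

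Mammary lineage genes were lower. Of 12 mammary basal genes 2 were at least 2-fold higher (Krt14 and Trp63) and 8 lower, with a median of −1.41; the contractile gene Acta2 stood at 755 CPM against 7095 in basal-like cells. Luminal progenitor genes were lower for 9 of 11 and higher for 0, with a median of −2.44, and hormone-sensing genes lower for 10 of 11 and higher for 0, with a median of −2.12. General epithelial genes were lower for 8 of 9, with a median of −2.62, led by Krt19, Krt7 and Cldn3. Epcam, the common epithelial adhesion protein, still had a UMI in 95.3% of members (761 against 2062 CPM), and Cdh1, E-cadherin, was level (283 against 279).

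Desmosome genes, which hold stratified cells together, were higher for 5 of 12 and lower for 1, with a median of 0.51. Without the rule gene Dsc3 it was 4 higher and 1 lower of 11, with a median of 0.37. Dsg3, the basal-layer cadherin, stood at 58.1 against 1.90 CPM, Perp at 915 against 177 and desmoplakin, Dsp, at 729 against 232. Dsg2, the cadherin of simple epithelia, was level, at 127 against 125 CPM.

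Among 36 epithelial transcription factors, 8 were at least 2-fold higher and 11 lower, with a median of −0.09. Beside Trp63, Pparg and Gata6, the higher ones included Ppara, the receptor that drives fatty acid oxidation (9.12 against 0.352 CPM), the keratinocyte differentiation factors Grhl3 (9.12 against 0.766) and Grhl1 (61.7 against 23.2), and Ehf (119 against 54.3). The hormone-sensing factors Foxa1 (5.90 against 81.3 CPM in hormone-sensing cells), Pgr (30.2 against 329) and Esr1 (22.0 against 105) were lower.

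Cell division genes were lower than in the other epithelial cells together. Those cells include a cluster that carried 15 of 15 G2/M genes, with 327 WT cells, of which 2 were members. Of 15 G2/M genes 14 were at least 2-fold lower, with a median of −1.56, while 0 of 15 S phase genes passed 2-fold in either direction. Mki67, the proliferation antigen, stood at 19.7 CPM in the members, 2.90 in basal-like and 4.25 in hormone-sensing cells, so the members were above both of those classes. Over the whole G2/M list the summed level was 144 CPM in the members, 28.6 in basal-like, 79.9 in hormone-sensing and 406 in progenitor-like cells. In the 96 members of sub-clusters 1 to 3, described further on, the sum was 50.5 CPM, below hormone-sensing cells, and the median was −2.65. With the 3 mammary classes weighted equally the median was −0.17.

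Markers of other cell types moved with some members. All 7 fibroblast genes were at least 2-fold higher in the 148 members, with a summed level of 1863 CPM against 379 in the other epithelial cells, and 3 of 8 immune genes were, with 155 against 28.3 CPM. None of the 7 fibroblast genes was at 0 in either group. Of 10 adipocyte genes 6 could be compared, of which 2 were higher (Lpl and Pparg) and 1 lower (Cfd). The list summed to 276 CPM in the members against 32.6, with Lpl at 237 CPM of it. The adipocyte-defining genes Adipoq, Lep, Plin1 and Cfd had no UMI in any member.

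Clustering the 148 members among themselves gave 6 sub-clusters, of which 3 carried another cell type's list. Sub-cluster 5 (16 cells) carried 7 of 7 fibroblast genes, with a summed level of 14318 CPM and Col1a1 at 3348 CPM. Sub-cluster 6 (14 cells) carried 10 of 12 hormone-sensing genes, with Areg at 1450.0 CPM. Sub-cluster 4 (22 cells) carried 9 of 12 mammary basal genes, had Cd74, the invariant chain of antigen presentation, at 417 CPM in 9 of 22 cells, and had the highest median depth, 62327 UMIs. These 52 cells include all 20 members outside the members' cluster. Whether such barcodes hold 1 cell or more was not tested beyond the doublet caller, which marked 1 of them. The division depends on the resolution: at 0.5 in place of 1 there were 4 sub-clusters, in which sub-clusters 3 and 4 fell together (49 cells), as did 5 and 6.

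The other 96 members, in sub-clusters 1 to 3, carried no other type's list and all lay in the members' cluster. In them the fibroblast sum was 355 CPM and the list's median −0.05, with 0 of 7 genes at least 2-fold higher. Sub-clusters carrying the fibroblast, mammary basal or hormone-sensing lists had been left out. Low levels of these 3 lists in the 96 cells thus follow in part from the choice. The lipid lists were as high or higher there: medians of 3.21 for sebocyte, 2.85 for cholesterol synthesis and 2.55 for fatty acid synthesis genes, beside −0.41 for all genes. All 25 named higher genes, which were picked in a set that holds these cells, were still at least 4-fold higher. The weakest had a log2 ratio of 4.58. Over the 96 together the medians were −2.90 for mammary basal and −3.70 for hormone-sensing genes. Sub-cluster 3 differed from the other two: its mammary basal genes summed to 10014 CPM, beside 9709 in sub-cluster 4, with 2 of 12 genes marked against 9 of 12. Its luminal progenitor genes summed to 2058 CPM, beside 1613 in sub-cluster 4.

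The genes that set sub-clusters 1 to 3 apart were used to form them, so what follows describes the division. Sub-cluster 2 (34 cells, median depth 43141 UMIs) had the highest sterol levels: Idi1 at 28124 CPM against 5427 in sub-cluster 1 and 69.5 in sub-cluster 3. Hmgcs1 followed the same order, at 4555, 541 and 84.8 CPM, and so did Fasn, at 645, 230.1 and 27.1. Awat2 and Soat1, the wax and sterol ester synthases, stood at 162 and 1525 CPM in sub-cluster 2, against 10.96 and 203 in sub-cluster 1. The rule genes Olah and Fa2h were also highest there, at 623 and 380.3 CPM. Of the 3 sub-clusters it had the lowest basal keratins: Krt5 stood at 6.25 CPM and Krt17 at 54.7.

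Sub-cluster 1 (35 cells, median depth 32239 UMIs) lay between. Its leading genes included Scgb1c1, a secretoglobin (94.0 CPM in 9 of 35 cells), Acaa1b (80.3) and Cidea, at 408 CPM against 416 in sub-cluster 2 and 57.7 in sub-cluster 3. Plin2 was nearly as high as in sub-cluster 2, at 3119 and 3539 CPM. Krt5 was at 20.1 CPM, and Krt14, by contrast, at 2182.

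Sub-cluster 3 (27 cells, median depth 30749 UMIs) carried keratinocyte genes, some of them in a minority of its cells, and little of the lipid set. Krt5 stood at 1035 CPM, Krt17, a keratin of follicles and ducts, at 4751, and Krt6a, a keratin of the inner follicle and of wounds, at 1311. Krtdap stood at 1788 CPM, Dmkn at 1036 and Dsg3 at 279, against 4.69, 171 and 1.56 in sub-cluster 2. In sub-cluster 3 Krtdap had a UMI in 37.0% of cells and Krt6a in 48.1%, so these pooled levels are not shared by all 27. Grhl3 was at 47.1 CPM here and at 0.913 and 0 in sub-clusters 1 and 2. Krt1 remained at 4.71 CPM. Scd1 was at 198 CPM, against 9443 in sub-cluster 2. Krt79 was high in all 3, at 489, 803 and 882 CPM, and so were Trp63, at 303, 173 and 305, and Lgals7, at 4924, 3771 and 5204.

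**Figure D4:**
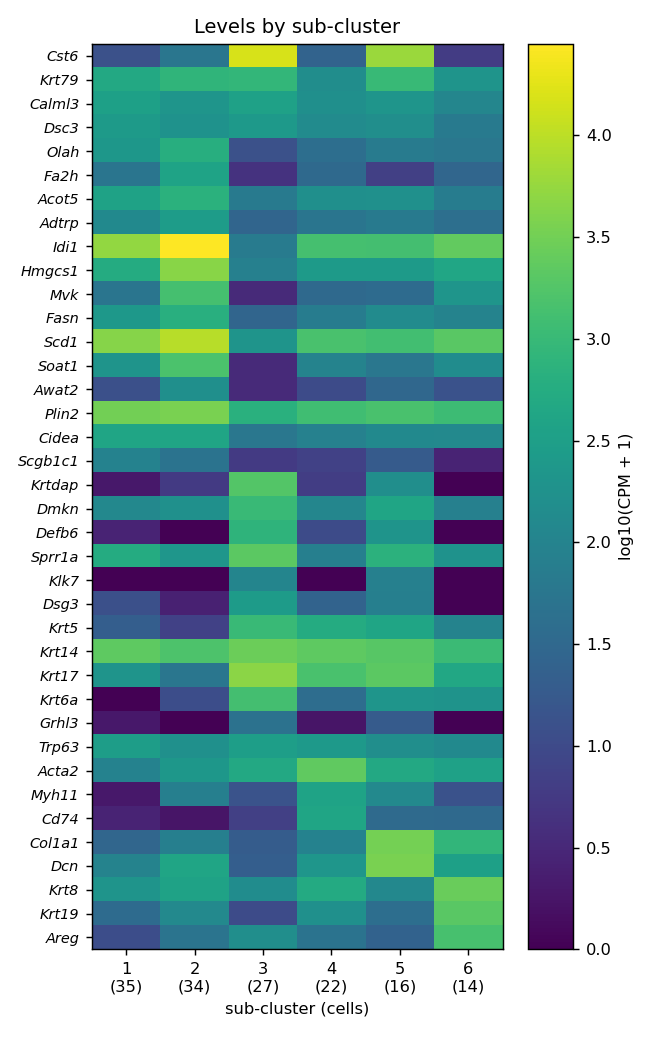
Level of 38 genes, as log10 of CPM + 1 (colour), in the 6 sub-clusters of members (columns, cell numbers in brackets). Idi1, Scd1 and Mvk are brightest in sub-cluster 2, Cst6, Krtdap and Krt6a in sub-cluster 3, Acta2 in sub-cluster 4, Col1a1 in sub-cluster 5 and Krt19 and Areg in sub-cluster 6. Colours compare 1 gene between columns, not genes with each other.

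Cst6 and the lipid genes sat mostly in different cells. Of the 9 cells with at least 100 Cst6 UMIs, 8 were in sub-cluster 3 and 1 in sub-cluster 5. All 9 had Krtdap, at 5100 CPM against 20.4 CPM in the other 139 members, and all 9 had Defb6, at 2482 against 11.1 CPM. Klk7, a protease that sheds outer skin cells, had a UMI in 5 of the 9 and in 2 of the 139. Idi1 stood at 91.6 CPM in the 9 and at 8643 in the 139, and Scd1 at 37.3 and 3902. Olah, Fa2h and Acot5 had no UMI in the 9 cells, which therefore entered through the other rule genes. Adtrp was in 1 of the 9, so the rule itself required Krt79, Calml3 and Dsc3 in 8 of them. Krt79 stood at 3218 CPM in the 9 and 411 in the 139, Calml3 at 858 and 200.4 CPM and Dsc3 at 370 and 176.

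Idi1 itself was detected in many cells, but its level was uneven. It had a UMI in 132 of the 148 members, with a median of 17.5 UMIs and a maximum of 2126, and the 5 highest cells held 22.6% of them. In 21 cells it had 1000 UMIs or more. Its level was 28124 CPM in sub-cluster 2, against 2276 CPM in all other members together. Scd1 had a UMI in 139 members, with a median of 57.5, and 9 members had none.

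**Figure D5:**
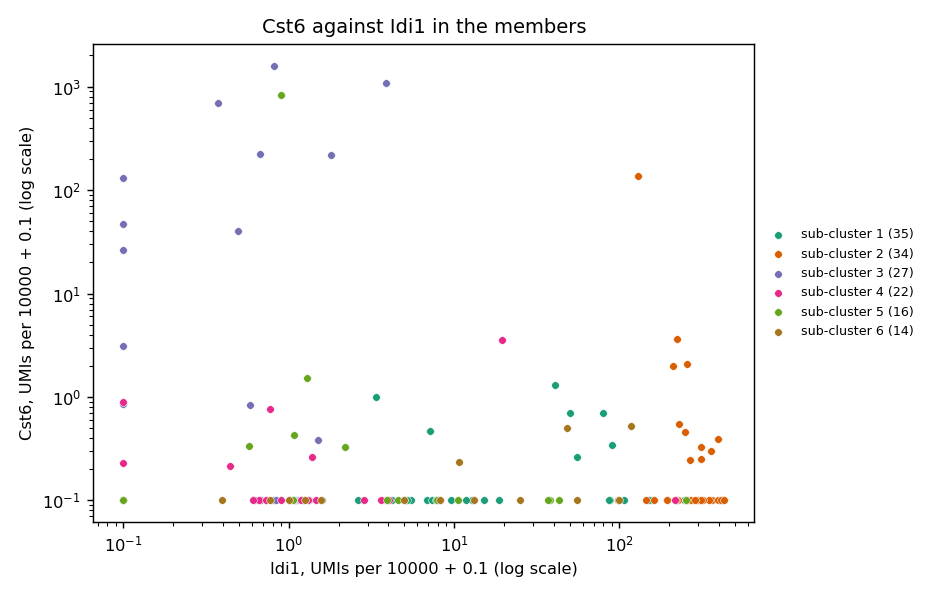
UMIs per 10000 of Idi1 (horizontal) and Cst6 (vertical) in each of the 148 members, with 0.1 added and log axes, coloured by sub-cluster. The 6 cells highest in Cst6, 5 of sub-cluster 3 and 1 of sub-cluster 5, lie at low Idi1, while the cells of sub-cluster 2 lie at high Idi1, 1 shallow cell of them also with Cst6.

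Antimicrobial and inflammatory genes were mixed, with 7 of 21 at least 2-fold higher and 6 lower and a median of 0.01. Il1rn, the interleukin-1 receptor antagonist, stood at 36.3 against 3.74 CPM and was highest in sub-cluster 3, at 179 CPM. S100a8 and S100a9, calprotectin subunits made by neutrophils and stressed epithelium, stood at 439 and 280.1 CPM against 36.0 and 44.6. These levels rested on very few cells: 1558 of the S100a9 UMIs came from 1 cell of sub-cluster 2, and 2450 of the S100a8 UMIs from 4 cells of it.

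Neither protease inhibitors nor a mixed list of cathepsins, legumain, transglutaminases and serine proteases of skin was higher as a group. The mixed list was at least 2-fold higher for 4 of 17 and lower for 6, with a median of −0.27. Lgmn, legumain, stood at 24.8 against 30.2 CPM and Ctsl, cathepsin L, at 259 against 671; Ctsd, cathepsin D, was among the higher ones, at 386 against 181. Tgm1 and Tgm3, the cross-linking enzymes of the cornified envelope, stood at 15.9 and 1.07 CPM in the members. Of 19 protease inhibitors compared, 4 were higher and 5 lower, with a median of −0.51. Without the rule gene Cst6 it was 3 higher and 5 lower of 18, with a median of −0.56.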

How the data were processed

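The 2 deposited matrices, 1 for each genotype, hold raw UMI counts for 32285 genes per barcode; the tools listed in the submitters' processing notes are Seurat 3.2.0 and Cell Ranger 5.0.1, with mm10 as genome build, and the labels name a 3′ version 2 kit. The authors' filters on barcodes are not given in the sources used here. Barcodes were kept with at least 1000 UMIs, at least 500 genes and at most 10% mitochondrial UMIs. Doublets were called with Scrublet in scanpy 1.11.5 and set aside from clustering (Leiden, 2000 variable genes, 30 components, 20 neighbours, resolution 1). The 148 members were clustered again with 1000 variable genes, 10 components and 15 neighbours, after normalising each cell to 10000 UMIs.

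Clusters were classed from marker lists, and a list marked a group of cells only by its fold over the rest and its share of detected genes. Counts were summed per group and given as CPM, with exact Poisson intervals; ratios add 1 CPM and use genes with at least 20 UMIs over both groups. Named genes are the 25 highest and 15 lowest ratios among genes with at least 50 CPM and a UMI in at least 25% of cells of the higher group and at least 100 UMIs over both, leaving out rule, ribosomal, mitochondrial, haemoglobin and unnamed predicted genes, plus members of the lists. The calls of fold were tested on simulated data. With 1 library per genotype no test was made. The members, lists and rules were chosen with earlier results of these data known. Gene positions come from GENCODE M21, which held 99.8% of the identifiers, and promoters from RefSeq. Some genes of the lists are not reported here by name.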

Additional observations from a re-analysis of the deposited data

How the results depend on the processing

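The count of members moved most with depth and with the boundary of the group. It was 148 WT cells by the rule, 59 with at most 5% mitochondrial UMIs and 13 after thinning each cell to 2000 UMIs. It was 96 in the 3 sub-clusters marked by no other type and 293 with all cells of the members' cluster. The KO count was 0 in each of the 4 alternatives that recount it. These only remove cells or UMIs, so the KO count could not rise in them. The number of genes at least 4-fold higher, 387, moved by over 1.5 times only with 5 CPM added, to 203. The number at least 4-fold lower, 317, was 141 with at most 5% mitochondrial UMIs, 491 as a mean over cells, 1405 with 0.1 CPM added, 105 with 5 CPM added, 1569 after thinning, 1250 in the 3 sub-clusters, 697 in members of their own cluster and 182 with ratios centred on the median gene. The granular and cornified median was −0.12 after thinning. The fibroblast median was −0.047 in the 3 sub-clusters, which were chosen in part for not carrying that list. With at most 5% mitochondrial UMIs the medians of cholesterol synthesis (2.39), fatty acid synthesis (2.15) and sebocyte genes (2.96) were 0.88, 0.76 and 1.94, and that of epidermal basal genes turned from −0.28 to 0.28. That limit also changed the mix of members. The median mitochondrial share was 5.95% and 6.92% in sub-clusters 1 and 2, against 4.97, 4.58, 3.92 and 4.37% in sub-clusters 3 to 6. How far this mix moved the medians was not tested. The spinous median, 1.11, was 0.23 with at least 5 rule genes, and the G2/M median, −1.56, was −0.17 with 3 classes weighted equally and −2.65 in the 3 sub-clusters. The 25 named higher genes stayed at least 4-fold higher in 325 of 325 recomputed values (log2 2.46 to 9.08). The 15 lower ones stayed at least 4-fold lower in 191 of 195. Both sets were picked as the most extreme in the same cells, so these counts are not an independent check. The restrictions to sub-clusters or cluster, the whole cluster and the centring were chosen after seeing the data. No paired analysis was possible because each genotype has 1 library. That single library, the shallow cells of the cluster and free RNA limit what the shares show.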

Other observations

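Several signalling and appendage lists were also compared between the Krt79 and Cst6 cells and the other WT epithelial cells. Egfr, the EGF receptor, was the only 1 of 14 EGF family genes at least 2-fold higher (71.9 against 32.2 CPM), while 5 were lower, among them the ligands Areg and Epgn (9.47 against 50.3). Of 14 Notch genes 0 were at least 2-fold higher and 2 lower, with a median log2 ratio of −0.51. Retinoid genes were divided, with 6 of 19 higher and 5 lower; Dhrs3, which returns retinal to retinol, stood at 71.3 against 22.5 CPM and Rxra, the partner of PPAR receptors, at 31.5 against 11.8, whereas Aldh1a3, a retinoic acid synthase of luminal progenitors, stood at 49.7 against 357.

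Genes of other skin appendages gave less. Of 13 outer root sheath and bulge genes 3 were higher and 2 lower, the higher ones being the follicle keratins Krt6a (249 against 105 CPM), Krt6b (8.94 against 0.0306) and Krt75 (8.04 against 0.0613). Krt6b and Krt75 had 2 and 4 UMIs in the other epithelial cells and passed the minimum of 20 UMIs only through the members. Of 8 sweat gland genes 0 were higher and 4 lower, with the water channel Aqp5 at 58.1 against 278 CPM. Immediate early and heat shock genes, which move with tissue dissociation, were lower for 5 of 16 and higher for 0, with Fos at 383 against 1247 CPM.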
